A study of Mus musculus with 22 samples.

Results

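The genes described here are those of the ligand Igf1, the receptors Igf1r and Igf2r, and the binding proteins Igfbp2, Igfbp3, Igfbp4, Igfbp5, Igfbp6 and Igfbp7. These 9 genes were chosen by symbol for their place in the pathway, out of 26202 gene symbols in the deposited table, and all 9 were found there. Gene expression was measured by RNA sequencing in mouse trachea, in a study of how cartilage-forming mesenchyme condenses under the influence of the ligand Wnt5a and of Notum, a secreted inhibitor of Wnt ligands.

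At E11.5, whole tracheas of Wnt5a f/f controls (5 libraries) were compared with Dermo1Cre; Wnt5a f/f mutants (4 libraries). Dermo1Cre is a recombinase active in mesenchyme, so Wnt5a in epithelium is not its target. At E13.5, cells were sorted from tracheas that carried gamma SMA eGFP, a green reporter of smooth muscle. Epithelium was positive for Epcam, muscle was positive for the reporter, and the cells negative for both were collected as chondroblasts, a gate that does not select for any cartilage protein. The labels give control samples 1 and 2 of each sorted population as Bmp4 f/f and sample 3 as Notum 300/300, and the mutants as Notum 150/150, all with the reporter. Columns of the table could not be tied to these sample numbers, so the genotype of each control library is not known here. Columns could be assigned to 2 epithelium, 2 muscle, 2 control chondroblast and 3 Notum mutant chondroblast libraries. The labels list more samples of these populations, 3, 3, 3 and 4. Another 4 columns fit no single group and were left unused. Whether they hold the remaining samples is not known here. Each sample pooled 5 tracheas. The study's methods take the pooled tracheas of a sorted sample from a litter and call sorted samples independent. For animal experiments in general, the methods give at least 3 litters of each genotype. Which litter each library came from is not given in the sources used here, nor whether each E11.5 sample had its own litter. The p-values below therefore measure the spread between these samples.

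Total counts ran from 6880665 to 20034364 in the E11.5 controls (median 17128310) and from 16108989 to 18545608 in the Wnt5a mutants (median 18137206). They were 15598661 and 20491972 in epithelium A and B, 17566731 and 16473999 in muscle A and B, and 21678194 and 13513213 in control chondroblasts A and B. The Notum mutant libraries A, B and C held 21521664, 20243059 and 19746625 counts. Column names of the sorted libraries carry an earlier or a later date. Muscle A, control chondroblasts A and epithelium B have the earlier date, and all the other sorted libraries, every Notum mutant included, have the later date. Levels are given as CPM, counts scaled to library size with TMM factors (a correction for library composition) over the 18 libraries. Log2 fold changes stand with their standard error (SE). A gene was called different when edgeR's quasi-likelihood test gave an adjusted p under 0.05 after Benjamini-Hochberg adjustment over all genes tested.

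Insulin-like growth factors are secreted peptides that promote growth and survival of cells in many embryonic tissues, cartilage and muscle among them. Igf1 and Igf2 signal through the tyrosine kinase receptor Igf1r, whereas Igf2r, which is also the cation-independent mannose 6-phosphate receptor, takes up Igf2 for degradation in lysosomes. Binding proteins hold the ligands outside the cell, where they can shield them from receptors or keep a reserve that proteases release.

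The targeted genes were read first. E11.5 controls A to E had 88.4, 162, 84.6, 86.9 and 57.7 CPM of Wnt5a, and the libraries labelled Wnt5a mutant A to D had 46.5, 78.6, 87.7 and 127 CPM. The groups overlapped, and mutant D lay above 4 of 5 controls. Some control and mutant columns share a number. Such pairs measured 88.4 and 78.6 CPM (control A, mutant B), 162 and 127 CPM (B, D), 84.6 and 87.7 CPM (C, C) and 86.9 and 46.5 CPM (D, A). The mutant was lower in each pair but that of control C and mutant C. Notum measured 13.8 and 86.1 CPM in control chondroblasts A and B, and 34.0, 35.6 and 13.9 CPM in the libraries labelled Notum mutant A, B and C. All 3 mutant values lay between those of the controls. They were thus below control B, which has the same date as the mutants, and above control A, which has the earlier date. A count over a whole gene can include transcript from outside a deleted part, and neither transcript separated mutant from control here, so these levels do not check the labels. Mutant and control are named below as labelled.

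Marker genes were summed per library to check the sorted populations. The 6 epithelial markers summed to 3884 and 3265 CPM in epithelium A and B, and to at most 45.4 CPM in any other sorted library. The 6 smooth muscle markers summed to 13675 and 10573 CPM in muscle A and B, and to at most 97.9 CPM in the others. Chondroblast markers were less exclusive. They summed to 2219 and 2110 CPM in control chondroblasts, to 675 and 1565 CPM in muscle A and B, and to 417 and 308 CPM in epithelium A and B, with Col2a1 the most abundant in all 6. The double negative cells also held other cell types: 8 erythroid genes summed to 79621 CPM in control chondroblasts A, against 7983 CPM in B and 7702 to 10462 CPM in the Notum mutants. Neural crest and neuronal markers reached 143 and 211 CPM in control chondroblasts A and B, endothelial markers 114 and 54.0 CPM, pericyte markers 302 and 301 CPM, and mesothelial markers 13.9 and 4.93 CPM. Skeletal muscle markers summed to 2403 CPM in muscle A and 626 CPM in muscle B. Most of this was Actc1 (1787 and 588 CPM), which developing smooth muscle can express too, while Myog measured 452 and 33.4 CPM, and Myf6 in A and B and Myf5 in B were at 0. Other cell types were uneven between the muscle libraries: erythroid genes summed to 12.4 and 3552 CPM in A and B, macrophage markers to 1.07 and 78.6 CPM, neural crest and neuronal markers to 11.7 and 103 CPM, and pericyte markers to 799 and 290 CPM. Their part in the muscle comparisons was not tested. Macrophage markers were all at 0 in epithelium A (6 of 6) and summed to 239 CPM in epithelium B. In such bulk samples, fewer cells of a type and less RNA per cell cannot be told apart.

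Igf1 was the member that differed most clearly between sorted populations. It lies at chr10:87858265-87937042 on the plus strand of GRCm38, the build that corresponds to the mm10 of the submitters' processing notes. It shares 5117 bases with the antisense gene Igf1os, whose level was not analysed here, and the library kit did not mark strand. The table splits Igf1 into 5 entries, the largest with 70.1% of its counts, which were summed. Igf1 measured 588 and 901 CPM in muscle A and B, 649 and 524 CPM in control chondroblasts A and B, and 90.6 and 76.1 CPM in epithelium A and B. Every mesenchymal library lay far above both epithelial libraries, while muscle and control chondroblasts overlapped. The mean was 745 ± 222 CPM in muscle (SD, n = 2), 587 ± 88.2 CPM in control chondroblasts (SD, n = 2) and, in epithelium, 83.4 ± 10.2 CPM (SD, n = 2). Igf1 was 8.90-fold higher in muscle than in epithelium (log2 fold change 3.15, SE 0.27, adjusted p = 0.00483) and 6.92-fold higher in control chondroblasts than in epithelium (2.79, SE 0.26, adjusted p = 0.00841). The muscle call held with each library of these groups left out in turn (log2 fold change 2.81 to 3.42). Where this leaves a lone library in a group, here and below, the spread comes from the other groups of the fit. The chondroblast call was lost with an adjusted p of 0.0608 without control chondroblasts A and 0.0527 without B, at log2 fold changes of 2.63 and 2.92. Within the earlier date the log2 difference between chondroblasts and epithelium was 3.08, and within the later date 2.53. Between chondroblasts and muscle Igf1 did not pass the test (log2 fold change -0.36, SE 0.25, adjusted p = 1), and the difference was 0.14 within the earlier date and -0.78 within the later.

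In whole trachea at E11.5, Igf1 was low. Controls A to E measured 78.5, 47.4, 91.8, 45.7 and 57.3 CPM, and Wnt5a mutants A to D measured 64.0, 113, 124 and 59.7 CPM. Mutants B and C lay above every control, and mutants A and D lay within the control range, so the groups overlapped. The log2 fold change was 0.46 (SE 0.28, adjusted p = 1.0), and it was 0.43 with the column number as a replicate block (SE 0.13, unadjusted p = 0.00843, adjusted p = 0.773). In each of the 4 pairs that share a column number Igf1 was higher in the mutant, at 78.5 and 113 CPM for control A and mutant B, 47.4 and 59.7 CPM for B and D, 91.8 and 124 CPM for C and C, and 45.7 and 64.0 CPM for D and A. Notum mutant chondroblasts A, B and C measured 357, 275 and 476 CPM. All 3 lay below both control chondroblast libraries, by a log2 fold change of -0.66 (SE 0.23), which missed the threshold (adjusted p = 0.344) there and in all 10 alternative fits tried (0.111 to 0.828). In the order of group means, muscle came before control chondroblasts, which overlapped it, followed by Notum mutant chondroblasts (369 ± 101 CPM, SD, n = 3) and Wnt5a mutant trachea (90.1 ± 33.0 CPM, SD, n = 4). Control and Notum mutant chondroblasts did not overlap, nor did Notum mutant chondroblasts and Wnt5a mutant trachea. Wnt5a mutant trachea, epithelium and E11.5 control trachea (64.1 ± 20.2 CPM, SD, n = 5) overlapped as neighbours.

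**Figure D1:**
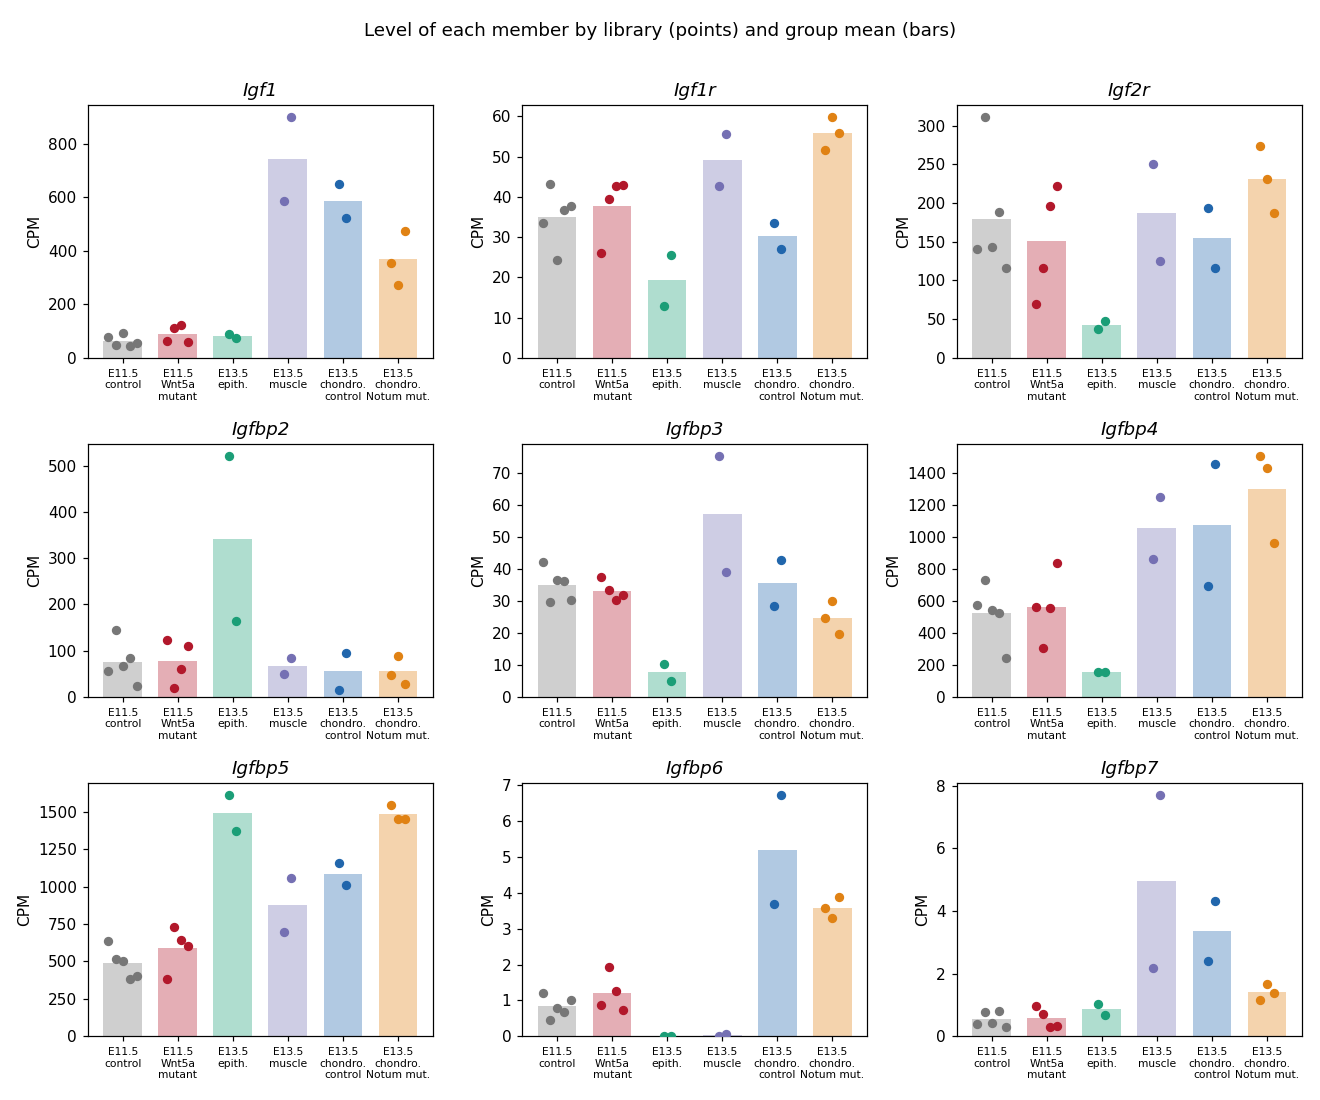
Level in CPM (y axis, from 0) of each of the 9 genes in 6 groups, with a point for each library and a bar for the group mean. Igf1 stood at 524 to 901 CPM in control muscle and chondroblasts against 76.1 and 90.6 CPM in epithelium, Igfbp4 was lowest in epithelium at 156 and 158 CPM, and Igfbp6 was at 0 in both epithelial libraries.

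Levels can be compared between genes only per length, so CPM was divided by the kilobases of annotated exon of each gene. Igf2, the other ligand, exceeded Igf1 per kb in all 18 libraries. The ratio of Igf2 to Igf1 per kb was lowest in muscle B, at 2.69, and highest in E11.5 control D, at 32.7. At E13.5 it was 4.55 in muscle A, 3.98 and 3.61 in control chondroblasts A and B, 5.55 to 10.98 in the Notum mutants, and 11.7 and 12.4 in epithelium A and B. Each Notum mutant library thus had a higher ratio than both control chondroblast libraries. This ratio was not tested. Exon lengths include transcript ends that these cells may not use, so a ratio between genes carries that uncertainty. Its order across libraries is free of it only where libraries use the same ends, which was not analysed.

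**Figure D2:**
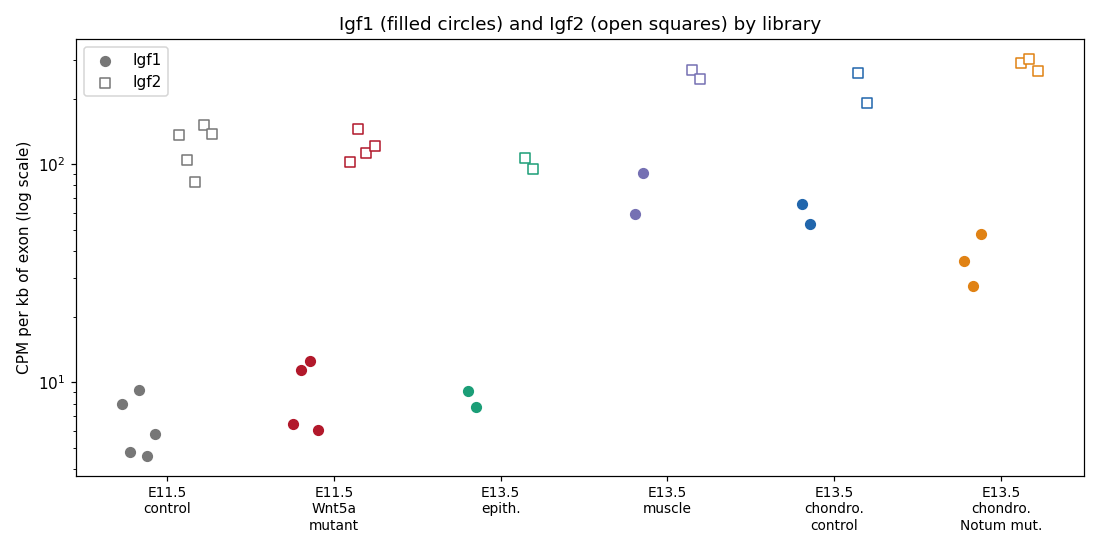
CPM per kb of exon on a log y axis for Igf1 (filled circles) and Igf2 (open squares), a symbol for each library in 6 groups. Igf1 spanned 4.62 to 91.0 CPM per kb and Igf2 82.4 to 304 CPM per kb, and Igf2 was above Igf1 in every library.

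Igf1r encodes the receptor kinase through which Igf1 acts. It lies at chr7:67952827-68233668 on the plus strand of GRCm38. Igf1r measured 33.5 and 27.0 CPM in control chondroblasts A and B, and 51.6, 59.8 and 55.8 CPM in Notum mutants A, B and C. Every mutant library was above both controls and the mutants varied little among themselves. The columns of mutants B and C have the same number in their names, and whether it marks a shared litter or animal is not given, although the SD and the tests count them as separate. Means were 55.7 ± 4.14 CPM (SD, n = 3) and 30.2 ± 4.59 CPM (SD, n = 2), a log2 fold change of 0.89 (SE 0.18) that did not pass edgeR's adjustment (adjusted p = 0.243). DESeq2 called it (adjusted p = 0.00213), as did edgeR against the control of the same date alone (log2 fold change 1.04, adjusted p = 0.0186), where the lone control is assumed to vary like the mutants. Over 10 alternative fits its log2 fold change stayed between 0.74 and 1.04, and its adjusted p ran from 0.00213 to 0.816, the highest without Notum mutant A. Muscle A and B measured 42.7 and 55.5 CPM, and epithelium A and B 12.8 and 25.7 CPM. Epithelium was lowest of the 6 groups (19.2 ± 9.09 CPM, SD, n = 2) and did not overlap control chondroblasts, the next in the order. These 2 groups were apart in this direction for 28.8% of all genes. No difference between sorted control populations passed the test, the largest being a log2 fold change of 1.34 between muscle and epithelium (SE 0.51, adjusted p = 0.241). At E11.5, Igf1r spanned 24.4 to 43.2 CPM in controls and 26.1 to 42.9 CPM in Wnt5a mutants, and the groups overlapped.

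Igf2r clears Igf2 from the cell surface. It lies at chr17:12682406-12769664 on the minus strand of GRCm38 and shares 28354 bases with the antisense gene Airn. The library kit did not mark strand, so reads of the shared stretch cannot be told apart, and group means of Airn were 7.91 to 12.5 CPM. Igf2r measured 250 and 125 CPM in muscle A and B, 193 and 116 CPM in control chondroblasts A and B, and 38.0 and 47.8 CPM in epithelium A and B. Both epithelial libraries were below every other library, the E11.5 tracheas included. Against epithelium, the log2 fold change was 1.83 in control chondroblasts (SE 0.42, adjusted p = 0.0894) and 2.12 in muscle (SE 0.42, adjusted p = 0.0517), both short of the threshold. With a term for the date both passed, at adjusted p = 0.0378 and 0.0238, and DESeq2 called both (adjusted p = 0.000889 and 5.68e-05). Over 10 alternatives the adjusted p ran from 1.71e-07 to 0.358 for chondroblasts and from 1.11e-09 to 0.176 for muscle, the lowest with no filter on low counts and the highest without control chondroblasts A and without muscle A. Notum mutants A, B and C measured 273, 231 and 187 CPM and overlapped the controls, with a log2 fold change of 0.59 (SE 0.25, adjusted p = 0.403). It was 0.98 and called by edgeR against the control of the same date alone (adjusted p = 0.0286), 0.26 without that control (adjusted p = 0.507), and not called by DESeq2 (adjusted p = 0.218). In whole trachea, Igf2r ran from 116 to 311 CPM in controls and from 69.4 to 222 CPM in Wnt5a mutants. Per kb, Igf2r exceeded Igf1r in each of the 18 libraries by 5.35 and 3.36 times in epithelium A and B, 10.6 and 4.06 times in muscle A and B, and 10.4 and 7.79 times in control chondroblasts A and B. Epithelium and muscle overlapped in this ratio.

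Among the binding proteins, Igfbp4 followed Igf1 in being low in epithelium. Its product binds both ligands and is the main substrate of the protease Pappa. Igfbp4 lies at chr11:99041244-99054392 on the plus strand of GRCm38. It measured 861 and 1251 CPM in muscle A and B, 695 and 1454 CPM in control chondroblasts A and B, and 156 and 158 CPM in epithelium A and B. All mesenchymal libraries stood more than 4 times above epithelium, and the chondroblast libraries differed most from each other. Igfbp4 was 6.69-fold higher in muscle than in epithelium (log2 fold change 2.74, SE 0.38, adjusted p = 0.0183) and 6.73-fold higher in control chondroblasts than in epithelium (2.75, SE 0.38, adjusted p = 0.0226). The muscle call was lost without muscle A (adjusted p = 0.0600), muscle B (0.0885) or epithelium A (0.0785). The chondroblast call was lost without control chondroblasts B (adjusted p = 0.0641, log2 fold change 2.10) or epithelium A (0.0950). Within each date the direction held, with log2 differences between chondroblasts and epithelium of 2.13 and 3.22 at the earlier and later dates. Notum mutants A, B and C measured 1504, 1430 and 963 CPM. They were above control A and, except mutant A, below control B, and the log2 fold change of 0.28 (SE 0.34, adjusted p = 0.770) turned to -0.17 against the control of the same date. At E11.5, controls A to E measured 578, 732, 547, 527 and 246 CPM and Wnt5a mutants A to D 562, 306, 554 and 835 CPM, and the groups overlapped.

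Igfbp5, whose product binds to matrix and is known for its place in muscle and skeletal differentiation, showed the reverse order across sorted populations. Igfbp5 lies at chr1:72857932-72874884 on the minus strand of GRCm38, and its end is 5457 bases from the end of Igfbp2 on the plus strand. It measured 1610 and 1374 CPM in epithelium A and B, 1155 and 1011 CPM in control chondroblasts A and B, and 699 and 1059 CPM in muscle A and B. Both epithelial libraries were the higher ones. The log2 fold change was -0.49 for control chondroblasts against epithelium (SE 0.22, adjusted p = 0.354) and -0.77 for muscle against epithelium (SE 0.22, adjusted p = 0.134), and neither passed. The muscle difference was called by DESeq2 (adjusted p = 0.00992), with no filter on low counts (0.00739) and with all 18 libraries in a fit (0.0482). Notum mutants A, B and C measured 1547, 1449 and 1449.5 CPM. They lay above both control chondroblast libraries and close to each other, at 1482 ± 56.6 CPM (SD, n = 3) against 1083 ± 102 CPM (SD, n = 2). The log2 fold change of 0.46 (SE 0.09) did not pass edgeR's adjustment (adjusted p = 0.239). DESeq2 called it (adjusted p = 0.000462), as did edgeR against the control of the same date alone (0.55, adjusted p = 0.0187), and over 10 alternative fits the adjusted p reached 0.816, without Notum mutant A. At E11.5, the values of Igfbp5 were 636, 514, 503, 386 and 402 CPM for controls A to E, while Wnt5a mutants A to D had 386, 727, 644 and 604 CPM. The groups overlapped (log2 fold change 0.25, SE 0.19, adjusted p = 1.0).

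Igfbp6 is known for its preference for Igf2 over Igf1. It lies at chr15:102144362-102149511 on the plus strand of GRCm38. Only 535 counts fell on it in all 18 libraries, so its values are given as counts. There were 72 and 90 counts in control chondroblasts A and B, 77, 67 and 79 in Notum mutants A, B and C, 0 and 1 in muscle A and B, and 0 in both epithelial libraries. Among sorted cells the transcript was thus found almost entirely in the double negative gate. The count of 0 in epithelium allows up to 0.0829 CPM over the group (3 counts). Control chondroblasts were 59.3-fold above this floor, and at least 47.7-fold higher than epithelium by the 95% counting interval. Against the 1 count in muscle the ratio was 161 (95% counting interval 28.5 to 6392). Such intervals and floors cover counting error only, since the kit adds no molecular identifiers. Neither difference was called by edgeR (adjusted p = 0.141 against epithelium and 0.753 against muscle). With all 18 libraries in the fit both were called (adjusted p = 0.000221 and 0.00319), and DESeq2 called the difference from epithelium (adjusted p = 0.0244). Among sorted control groups, Igfbp6 passed the filter on low counts only through the chondroblasts, so only the higher side was open to it there. Control and Notum mutant chondroblasts overlapped at 5.20 ± 2.15 CPM (SD, n = 2) and 3.59 ± 0.305 CPM (SD, n = 3), with a log2 fold change of -0.53 (SE 0.53, adjusted p = 0.708). E11.5 controls A to E had 21, 9, 15, 10 and 7 counts and Wnt5a mutants A to D had 16, 35, 22 and 14, below the filter for a test at that age.

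Igfbp2, Igfbp3 and Igfbp7 had weaker or less even patterns. Igfbp2 (chr1:72824503-72852474, plus strand), a binding protein abundant in the fetus, measured 520 and 164 CPM in epithelium A and B and 15.6 to 95.9 CPM in the other sorted libraries. Epithelium was highest, but its libraries differed widely, and edgeR called neither comparison (log2 fold change -2.63, SE 0.92, adjusted p = 0.226 for control chondroblasts, and -2.35, SE 0.91, adjusted p = 0.244 for muscle). Igfbp3 (chr11:7206086-7213923, minus strand), the main carrier of Igf1 in serum, was lowest in epithelium. It measured 10.5 and 5.13 CPM in epithelium A and B, 75.3 and 39.1 CPM in muscle A and B, and 28.4 and 42.9 CPM in control chondroblasts A and B. Both epithelial values were the lowest of all libraries, at log2 fold changes of 2.88 for muscle (SE 0.62, adjusted p = 0.0647) and 2.18 for control chondroblasts (SE 0.60, adjusted p = 0.139). DESeq2 and edgeR with no filter on low counts called all 4 of these differences. Over 10 alternatives each, the adjusted p reached 0.608 and 0.601 for Igfbp2 in chondroblasts and in muscle, and 0.261 and 0.5001 for Igfbp3 in muscle and in chondroblasts. Igfbp7 (chr5:77349240-77408041, minus strand), a relative with low affinity for the ligands, had 37 and 122 counts in muscle A and B, 47 and 58 in control chondroblasts A and B, 25, 34 and 28 in Notum mutants A, B and C, and 16 and 14 in epithelium A and B. The Notum mutants lay below both controls, with a log2 fold change of -1.25 that did not pass (SE 0.65, adjusted p = 0.476). Igfbp7 overlaps Polr2b by 85 bases at its end, and Polr2b had group means of 130 to 187 CPM, so reads of that stretch may be shared. It also shares 7085 bases with the antisense gene Gm34648, whose level was not analysed here.

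Promoters are shown for 3 binding protein genes whose libraries stood apart in different ways. Igfbp4 was low in epithelium. Igfbp5 was higher in epithelium and in Notum mutants than in control chondroblasts, and Igfbp6 was found in the double negative cells. Of these differences, only those of Igfbp4 passed edgeR's adjustment in the main fits. RefSeq entries on GRCm38.p6 matched 9 of 9 genes, and the windows are the 250 bases before the annotated start, written 5′ to 3′ on the strand of the gene. Capitals mark TATAAA and CCAAT matches on either strand.
Igfbp4, chr11:99040994-99041243, plus strand: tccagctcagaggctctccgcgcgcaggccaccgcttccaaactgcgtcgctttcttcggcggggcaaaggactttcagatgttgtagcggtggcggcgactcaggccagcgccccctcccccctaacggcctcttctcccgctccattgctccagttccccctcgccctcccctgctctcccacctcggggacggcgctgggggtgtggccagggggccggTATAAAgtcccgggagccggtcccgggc
Igfbp5, chr1:72874866-72875115, minus strand: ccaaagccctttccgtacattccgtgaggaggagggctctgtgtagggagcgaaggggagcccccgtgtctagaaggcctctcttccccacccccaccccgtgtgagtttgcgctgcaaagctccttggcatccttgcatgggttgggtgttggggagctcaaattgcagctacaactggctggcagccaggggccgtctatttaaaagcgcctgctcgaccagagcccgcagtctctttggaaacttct
Igfbp6, chr15:102143936-102144185, plus strand: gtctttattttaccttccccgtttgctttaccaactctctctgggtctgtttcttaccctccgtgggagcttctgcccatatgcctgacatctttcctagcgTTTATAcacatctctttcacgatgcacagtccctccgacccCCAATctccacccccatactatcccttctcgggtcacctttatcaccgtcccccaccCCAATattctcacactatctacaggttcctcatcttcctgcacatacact
Igfbp4 has TATAAA at 28 to 23 bases before the start, where a TATA box usually lies. Igfbp6 has TATAAA on the opposite strand at 148 to 143 bases before the start. It has CCAAT at 107 to 103 and at 50 to 46 bases before the start. Its window ends at 102144185, upstream of the GENCODE start at 102144362, so these distances hold for the RefSeq start only. Igfbp5 held none of the 5 motifs searched on both strands, and 19 of its 250 bases are annotated as exon by GENCODE. Of 32851 promoter windows of this length, 12.4% hold TATAAA, 33.8% CCAAT, 32.7% GGGCGG, 13.8% CTTTGA and 9.42% AACAAT, and no matches overlapped in the 3 windows. GGGCGG was found 3 times before Igf2r, 3 times before Igfbp2, 4 times before Igfbp7 and 2 times before Igf1r, and CTTTGA before Igf1r and Igf1. The GC content was 69.2% for Igfbp4, 58.8% for Igfbp5 and 49.6% for Igfbp6, against a median of 52.4% over all windows. These matches describe letters only. The Igf1 window lies within an annotated exon of a longer transcript and is not printed.

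Taken per kb of exon and summed, the binding proteins stood highest relative to Igf1 in epithelium among the sorted cells. The sums themselves overlapped, at 589 and 356 CPM per kb in epithelium A and B and 364 and 524 in muscle A and B. Control chondroblasts A and B had 372 and 573, and the Notum mutants 486 to 637. Igf1 had 9.15 and 7.69 CPM per kb in epithelium A and B and 52.9 to 91.0 in muscle and control chondroblasts. The sum of the 6 binding proteins was 6.13 and 5.76 times Igf1 in muscle A and B, 5.68 and 10.8 times in control chondroblasts A and B, 17.7, 22.6 and 10.1 times in Notum mutants A, B and C, and 64.4 and 46.3 times in epithelium A and B. Both epithelial libraries had a higher proportion than every other sorted library, muscle lay within the range of control chondroblasts, and Notum mutants overlapped control chondroblasts. E11.5 controls ran from 25.2 to 71.1 times and Wnt5a mutants from 18.8 to 59.8 times. Igfbp4 made up 53.6% to 54.0% of the sum in muscle, 42.2% to 57.5% in control chondroblasts and 5.99% to 10.1% in epithelium. Igfbp2 was the most abundant binding protein per kb in epithelium A, and Igfbp4 or Igfbp5 in the other 17 libraries.

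**Figure D3:**
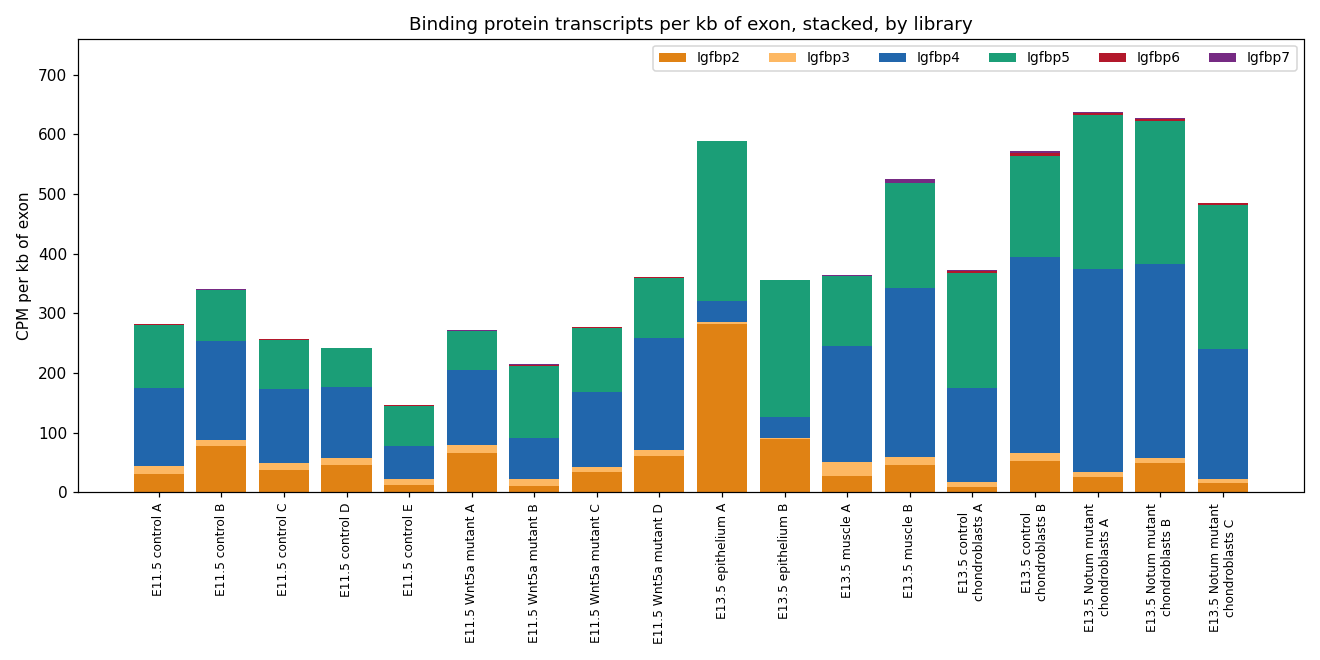
Stacked bars of CPM per kb of exon (y axis, from 0) for 6 binding protein genes in each of 18 libraries. Igfbp4 and Igfbp5 fill most of each bar, and Igfbp4 is only 5.99% and 10.1% of the sum in the epithelial libraries.

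Across the sorted control populations, the counts of members called read as follows. In edgeR's test of chondroblasts against epithelium, 2 of 9 were called, Igf1 and Igfbp4, both higher in chondroblasts, where 2.74% of 13687 genes were called. Between muscle and epithelium, 2 of 9 were called, again Igf1 and Igfbp4 and both higher in muscle, with 3.58% of genes called. Both comparisons share the epithelial libraries, and the comparisons with chondroblasts, those of Notum mutants and of age included, share the control chondroblasts. Chondroblasts and muscle differed in 0 of 9 members by edgeR, with 0.132% of genes called. DESeq2 also called 0 there, with 1.86% of genes called, and Igfbp6 alone had an unadjusted p under 0.05. The median log2 fold change of members was 1.95 for chondroblasts against epithelium (all genes 0.02) and -0.30 for chondroblasts against muscle (all genes 0.00). Both medians include Igfbp6, to which only the higher side was open. For muscle against epithelium the median was 2.32 over the 8 members other than Igfbp6 (all genes 0.03). Counts of Igfbp6 there were at the floor on both sides. DESeq2 called 6 of 9 members in chondroblasts against epithelium, 5 higher and 1 lower, where it called 11.4% of genes. In muscle against epithelium it called 6 of 9, 4 higher and 2 lower, where it called 13.3%. Lack of overlap is common in groups of 2 libraries. Of all genes, 28.8% were apart with chondroblasts above epithelium and 23.5% with chondroblasts below. For muscle against epithelium these shares were 27.4% and 24.5%.

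Wnt5a mutant tracheas differed from controls in 0 of 7 members tested by edgeR, where 0.0136% of 14663 genes were called. Without the replicate block no member had an unadjusted p under 0.05, and with it Igf1 alone did. DESeq2 called 0, where it called 0.273% of genes. Igf1 and Igfbp5 were higher in the mutant in 4 of 4 same-numbered pairs, as were 6.94% of all genes and the untested Igfbp6, although control D and mutant A were all but equal in Igfbp5 (385.6 and 385.7 CPM), and 0 of the 7 members were lower in all 4 pairs (5.78% of all genes). Over all genes edgeR called 2, the skeletal muscle regulators Myog and Myod1, named here after their values were seen, and with the column number as a replicate block it called 1. Myog measured 6.65 to 20.2 CPM in controls and 60.8 to 85.3 CPM in mutants (log2 fold change 2.42, SE 0.25, adjusted p = 0.0133), and Myod1 2.89 to 5.41 CPM and 13.2 to 18.2 CPM (1.91, SE 0.22, adjusted p = 0.0188). With the block, Myod1 was not called (adjusted p = 0.0768). With a library left out, Myog kept its call in 4 of 9 fits (adjusted p up to 0.104) and Myod1 in 2 of 9 (up to 0.120), and neither was called with all 18 libraries in a fit. All 6 skeletal muscle markers were found in every mutant, summing to 334, 193, 232 and 304 CPM in A to D, against 70.3, 45.1, 102, 90.7 and 241 CPM in the controls. Actc1 was the most abundant of them in all 9 libraries, and 1 was at 0 in control B. Their sum was higher in the mutant of each same-numbered pair. Mesothelial markers were lower in the mutant of each, at 143 and 102 CPM for control A and mutant B, 55.7 and 26.3 CPM for B and D, 56.1 and 39.9 CPM for C and C, and 250 and 64.2 CPM for D and A. The part of both lists in the values of the 7 members was not tested. The median log2 fold change of the 7 members was 0.07, against -0.02 for all genes.

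Notum mutant chondroblasts differed from controls in 0 of 9 members by edgeR, where 0% of 14120 genes were called and the smallest adjusted p of any gene was 0.0540. At an unadjusted p under 0.05 there were 3 members, Igf1, Igf1r and Igfbp5, and 1762 genes in all, and DESeq2 called 2 members, Igf1r and Igfbp5, and 526 genes (3.73%). Libraries of the groups did not overlap with mutants higher for Igf1r and Igfbp5, 2 of 9 members against 17.2% of all genes. They did not overlap with mutants lower for Igf1 and Igfbp7, 2 of 9 against 16.4%. Shares of this size are near those of all genes. The control libraries have different dates and all mutants the later one, so whatever differs between the control libraries, date included, enters their spread. Against the control of the same date, Igf1r, Igf2r and Igfbp5 were higher in 3 of 3 mutants, and Igf1, Igfbp2, Igfbp3, Igfbp6 and Igfbp7 were lower in 3 of 3, as were 41.5% and 34.7% of all genes, so most genes lie to one side of this lone control. Igfbp2 measured 15.6 CPM in the earlier and 95.9 CPM in the later control, with mutants at 28.4 to 89.7 CPM. These controls differ in date and in erythroid sum, and may differ in genotype, which cannot be told apart. Macrophage markers summed to 329, 280 and 402 CPM in mutants A, B and C against 204 and 127 CPM in controls A and B, with 6 of 6 found in each and Csf1r the most abundant. Neural crest and neuronal markers summed to 226, 281 and 214 CPM in the mutants against 143 and 211 CPM (5 of 5 found, Tubb3 the most abundant), and pericyte markers to 333, 326 and 318 CPM against 302 and 301 CPM (5 of 5 found, Pdgfrb the most abundant). Chondroblast markers, the defining ones of this population, summed to 3078, 3407 and 2657 CPM in the mutants against 2219 and 2110 CPM, Col2a1 again the most abundant, with 1 of 6, Matn1, at 0 in mutant A and in control B. Smooth muscle markers summed to 97.4, 69.3 and 97.9 CPM against 55.3 and 59.7 CPM (6 of 6 found, Acta2 the most abundant). These 5 lists were higher in all 3 mutants than in both controls. Epithelial markers were lower, at 20.98, 16.8 and 25.6 CPM against 31.9 and 32.7 CPM, with Krt18 the most abundant in 4 libraries and Krt8 in control B, and 1 of 6, Cdh1, at 0 in mutant A. The part of these lists in the values of Igf1, Igf1r, Igfbp5 and Igfbp7 was not tested.

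**Figure D4:**
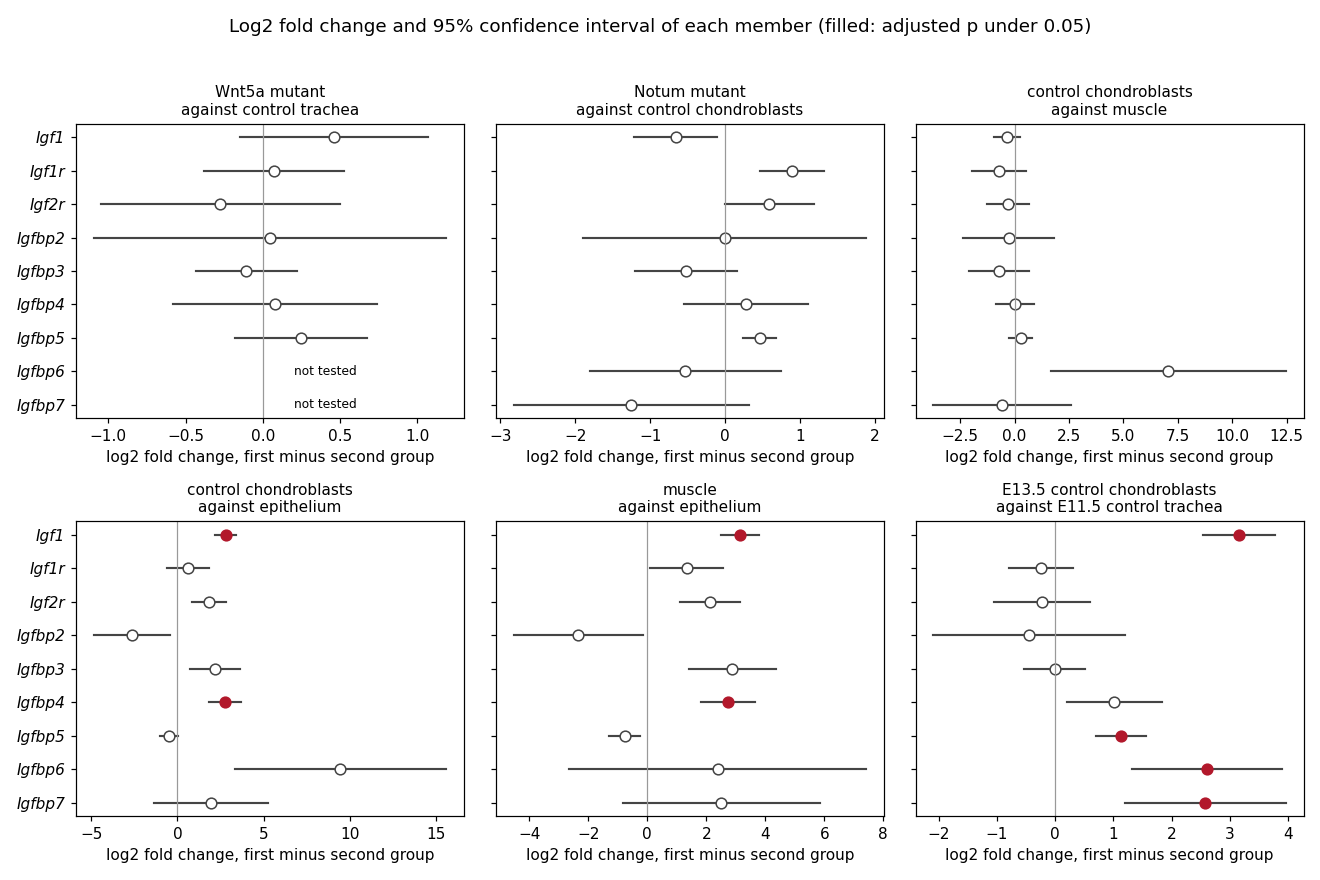
Log2 fold change (x axis, first minus second group named above each panel) with its 95% confidence interval for the genes tested in 6 comparisons. Points are filled where edgeR's adjusted p was under 0.05. All 9 genes were tested except in the Wnt5a comparison, where Igfbp6 and Igfbp7 were below the filter and have no value. Igf1 and Igfbp4 are filled in both comparisons with epithelium (2.79 and 2.75 for chondroblasts, 3.15 and 2.74 for muscle), and no gene is filled for the Wnt5a or Notum mutants. Where muscle or epithelium is compared, Igfbp6 has counts of 0 or 1 on at least 1 side, so its position there depends on the small count that edgeR adds.

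Control chondroblasts at E13.5 were also set against whole control trachea at E11.5, where age, sorting and control genotype cannot be told apart. E11.5 controls were Wnt5a f/f, and their columns carry no date. Chondroblast markers summed to 232 to 748 CPM in E11.5 controls, below both sorted libraries (2219 and 2110 CPM). Epithelial markers were higher at E11.5, at 244 to 402 against 31.9 and 32.7 CPM. Smooth muscle, endothelial, skeletal muscle and mesothelial markers were higher there too, and the other lists overlapped. The part of these lists was not tested. The comparison shares the E11.5 controls with the Wnt5a comparison. Of 9 members, 4 were called, all higher in the sorted cells, with 12.5% of 14728 genes called. Igfbp6 and Igfbp7 among them passed the filter on low counts only through the chondroblasts. Only a call on the higher side was thus open to these genes. E11.5 controls A to E had 7, 15, 8, 12 and 2 counts of Igfbp7. Igf1 was 8.96-fold higher (log2 fold change 3.16, SE 0.27, adjusted p = 0.000554), and Igfbp5 2.18-fold higher (1.13, SE 0.19, adjusted p = 0.00796). These 2 were called with each library left out in turn. Igfbp6 was 6.09-fold higher (2.61, SE 0.57, adjusted p = 0.0221), a call lost without control chondroblasts B (adjusted p = 0.103) or E11.5 controls C (0.0510) or D (0.0614). Igfbp7 was 5.98-fold higher (2.58, SE 0.61, adjusted p = 0.0291), and the call was lost without a filter on low counts (0.0816), without control chondroblasts B (0.121) and without E11.5 controls A (0.0682), C (0.0633) or D (0.0525). Igf1r, Igf2r, Igfbp2 and Igfbp3 had log2 fold changes of -0.45 to 0.00 and were not called, and Igfbp4 reached 1.02 (adjusted p = 0.0968). Igfbp4 was called by DESeq2 (adjusted p = 0.0383) and without control chondroblasts A (1.42, adjusted p = 0.0370), and fell to 0.38 without B (adjusted p = 0.620). In all, DESeq2 called 5 of 9 members, where it called 23.7% of genes. The median over members was 1.02, against -0.05 for all genes. It includes Igfbp6 and Igfbp7, to which only the higher side was open. Of the others, Igf1, Igfbp4 and Igfbp5 stood at 3.16, 1.02 and 1.13, and the rest at -0.45 to 0.00. Igfbp1, the remaining binding protein of the family, was at 0 in both control chondroblast libraries.

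Other genes of the pathway were read from a list of 56, sorted by role. Neither mutant group had any of them called by edgeR (0 of 50 tested for Wnt5a and 0 of 48 for Notum). For Wnt5a, 4 had an unadjusted p under 0.05 (4.58% of all genes did) and DESeq2 called 0. These 4 were the adaptor Irs4 (log2 fold change 3.26), the protease Pappa2 (-1.43) and the secreted proteins Igfbpl1 (-1.46) and Ccn4 (-0.59). For Notum, 11 had an unadjusted p under 0.05 (12.5% of all genes did), 7 higher and 4 lower in mutants, and DESeq2 called 1, Ccn4. Ccn4, a matricellular protein and Wnt target, measured 108 and 79.2 CPM in control chondroblasts A and B and 279, 263 and 211 CPM in mutants A, B and C. All mutants were above both controls, at a log2 fold change of 1.44 (SE 0.19, adjusted p = 0.131). Igf2 measured 1494 and 1095 CPM in these controls and 1662, 1742 and 1527 CPM in the mutants. It was higher in each mutant than in either control, a log2 fold change of 0.36 that did not pass (SE 0.14, adjusted p = 0.374). The others of the 11 were Igf2bp1 (0.42), Rptor (0.53), Pik3r1 (0.37), Tsc2 (0.37) and Gab1 (0.34) on the higher side, and Stc1 (-0.65), Map2k1 (-0.57), Grb10 (-0.27) and Insrr (-1.71) on the lower. The median over these genes was 0.00 for Wnt5a (all genes -0.02) and 0.09 for Notum (all genes 0.02).

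Between sorted control populations, the other ligand and a protease were lowest in epithelium, as Igf1 and Igfbp4 were. Igf2 measured 1545 and 1402 CPM in muscle A and B and 614 and 545 CPM in epithelium A and B. Epithelium was lowest, by a log2 fold change of 1.34 from muscle (SE 0.19, adjusted p = 0.0185) and 1.13 from control chondroblasts (SE 0.19, adjusted p = 0.0352). The chondroblast call of Igf2 was lost with each of the 4 libraries left out in turn (adjusted p 0.0600 to 0.137) and with a date term (0.0503), and the muscle call was lost without muscle A (0.0961), muscle B (0.0731) or epithelium A (0.0510). Pappa, the protease that cleaves Igfbp4, had 786 and 448 counts in control chondroblasts A and B, 261 and 230 in muscle A and B and 0 in both epithelial libraries. It was at least 451-fold higher in chondroblasts and at least 181-fold higher in muscle than in epithelium (adjusted p = 0.0129 in both). Pappa passed the filter on low counts only through the mesenchymal groups. Only a call on the higher side was thus open to it against epithelium. Both calls were lost when either library of the mesenchymal group was left out (adjusted p 0.0963 and 0.0997 for chondroblasts, 0.0589 and 0.0552 for muscle). The adaptor Shc1 was also called for chondroblasts against epithelium (log2 fold change 1.51, SE 0.25, adjusted p = 0.0363), with a smaller value of 0.95 that did not pass (0.246) from its largest entry alone. Its call was also lost with a date term (0.0588) and without control chondroblasts A (0.207), control chondroblasts B (0.143) or epithelium A (0.117). In all, edgeR called 3 of 48 other pathway genes against epithelium in chondroblasts and 2 of 48 in muscle. All were higher, the only side open to Pappa, which is in both counts. Of all genes, edgeR called 2.74% and 3.58% there. DESeq2 called 6 and 7 of the pathway genes, beside 11.4% and 13.3% of all genes. EdgeR called 0 of 48 between chondroblasts and muscle (0.132% of all genes), where 3, Insrr, Rheb and Ccn2, had an unadjusted p under 0.05 (5.79% of all genes) and DESeq2 called 2, Insrr and Ccn2 (1.86% of all genes).

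Against epithelium, 9 of 48 other pathway genes had an unadjusted p under 0.05 in chondroblasts (16.4% of all genes did) and 11 of 48 in muscle (18.3%), shares near those of all genes. Those of lists with none called follow. The matricellular gene Ccn4 was higher in chondroblasts (log2 fold change 3.13, adjusted p = 0.0746) and in muscle (3.41, adjusted p = 0.0502), and its relative Ccn1 was lower in both (-1.83 and -1.64). Ccn2 was higher in muscle than in epithelium (1.66) and lower in chondroblasts than in muscle (-2.80, adjusted p = 0.510). Igf2bp3 was lower than in epithelium in both chondroblasts (-0.82) and muscle (-0.64). In muscle against epithelium, the adaptors Shc1 (1.22, adjusted p = 0.0589) and Grb14 (-2.54, adjusted p = 0.0579) and the translation regulators Eif4ebp1 (1.26) and Rptor (-1.36) were of this kind too. Insrr, a relative of the insulin receptor, had 0 counts in muscle and was at least 79.8-fold higher in chondroblasts than in muscle (adjusted p = 0.677), and 5.81 higher on the log2 scale in chondroblasts than in epithelium. None of these passed edgeR's adjustment. Insrr passed the filter on low counts only through the chondroblasts. Only the higher side was thus open to it in chondroblasts against muscle and against epithelium. Medians over the 48 genes were 0.12 for chondroblasts against epithelium, 0.10 for muscle against epithelium and -0.06 for chondroblasts against muscle, against 0.02, 0.03 and 0.00 for all genes.

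At E13.5 against E11.5, 8 other pathway genes were called higher and 3 lower, of 49 tested, where 12.5% of all genes were called, and DESeq2 called 16, where it called 23.7%. The higher ones included 3 of 5 binding protein proteases and their inhibitors, namely the proteases Pappa (log2 fold change 2.52, adjusted p = 0.00555) and Htra1 (2.35, adjusted p = 0.0250) and the Pappa inhibitor Stc1 (1.60, adjusted p = 0.00386). Pik3r1, a regulatory subunit of PI3 kinase, was higher by 1.90 (adjusted p = 0.00133), and Foxo3 by 1.03 (0.0238). Insrr (1.71), Ccn3 (2.98) and Kazald1 (2.83) were higher as well. Ccn3 had a mean of 0.499 CPM in E11.5 controls and passed the filter only through the chondroblasts. Only a call on the higher side was thus open to Ccn3. The lower ones were Igf2bp1 (-1.19), Igf2bp3 (-0.66) and Eif4ebp1 (-0.63), of which Igf2bp1 and Igf2bp3 bind Igf2 mRNA. Pappa, Stc1 and Pik3r1 were called with each library left out in turn. Htra1 was at 0.81 (adjusted p = 0.351) without control chondroblasts B, having measured 5.88 CPM in A and 28.2 CPM in B. Stc1 was not called with all 18 libraries in a fit (0.144). Each of the other 7 lost its call with at least 1 library left out. Among genes of lists with none called, Shc1 was at 0.60 (adjusted p = 0.0637) and Mapk3 at -0.38. The median over the 49 genes was 0.22, against -0.05 for all genes.

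Genes whose levels resembled those of each member most closely were found over the 18 libraries by Pearson's r of log2(CPM + 1), among genes with a mean of at least 5 CPM. These values are descriptions. The libraries fall into groups, so r follows the order of group means. Igf1 was most like Sgcb (0.961), Prss35 (0.953) and Col6a2 (0.951). Igfbp5 was most like Mmp11 (0.966), Aldh2 (0.926) and Fgfr3 (0.922), and Igfbp4 most like Efnb1 (0.948), Rin3 (0.947) and Tmem132c (0.941). The receptors came closest to Kif21b (0.935 with Igf1r), Tmem8b (0.913) and Slc4a8 (0.912), and to Mical1 (0.948 with Igf2r), Pdgfrb (0.914) and Kirrel (0.911). Igfbp2 resembled Pim3 (0.942), Anp32b (0.934) and Ppa2 (0.931), Igfbp3 resembled Rbpms2 (0.921), Crispld2 (0.919) and Vim (0.916), Igfbp6 resembled Syt17 (0.933), Vav1 (0.905) and Pik3cd (0.887), and Igfbp7 resembled Ubxn4 (0.885), Pomk (0.879) and Abca8a (0.866). Between members, r was highest for Igf1 and Igfbp7 (0.822) and for the receptors Igf1r and Igf2r (0.773), and lowest for Igf1r and Igfbp2 (-0.522).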

How the data were processed

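Polyadenylated RNA was copied and amplified by SMART-Seq v4, which keeps no strand, and libraries were made with Nextera XT. The authors deposited expected counts (estimated counts, 56% of them fractional) without normalization, as a table of 47248 entries by gene symbol. The submitters' processing notes name mm10, Partek and limma. The aligner, the counter and the annotation are not given in the sources used here. Of 22 columns, 18 carry a name that fits a single group of the labels. The remaining 4 were left unused. Letters follow column order within a group. Entries of a symbol were added up (9286 of 26202 symbols had several), which hides transcript differences, and rounded.

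A gene was kept where over 50% of the libraries of any fitted group reached 1 CPM. EdgeR 4.0.16 in R 4.3.3 was used (quasi-likelihood, TMM, 2-sided, Benjamini-Hochberg over all genes), with SE as log2 fold change over the root of F. The 3 sorted control populations shared a fit, and each other comparison used its own groups. All steps were tested on simulated data with 200 changed genes. Libraries of a group differed beyond sampling noise (chi-square per gene at least 18.8). Numbers in the column names are shared by 4 control and mutant libraries at E11.5. Deviations of same-numbered libraries from their group means correlated at 0.138, 0.192, 0.102 and 0.530, all over the limit of 0.1 (the highest of the others was 0.219, control E with mutant A), so the numbers were taken as pairs for a replicate block.

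Alternatives were DESeq2 1.42.0, its size factors in edgeR, no filter, all 18 libraries in a fit, the block or a date term, the largest entry of a symbol, and each library left out. Those for called pathway genes and for Myog and Myod1 were chosen after seeing the data. The members and lists were chosen with earlier results of these data known. A pathway gene is not reported here and was left out of the lists. Named are all members, the targeted genes, pathway genes called or, in lists with none called, up to 4 with an unadjusted p under 0.05, and the 3 genes most like each member. Positions and exon lengths (union of annotated exons) are from GENCODE on GRCm38, promoters from RefSeq on GRCm38.p6.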

Additional observations from a re-analysis of the deposited data

How the results depend on the processing

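Over 581 alternative values of the members' log2 fold changes, 498 kept direction and side of the threshold, 15 lost a call, 37 gained a call and 31 turned sign, all of the last uncalled. For the called pathway genes with Myog and Myod1, chosen after seeing the data, 127 of 212 alternatives kept the call and 85 lost it, with no change of sign. The fit against the control of the same date is also the fit without control chondroblasts A, so the 9 values of the members there are counted under both. The cause was not tested for any of these.

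Genes called between Wnt5a mutant and control numbered 2, against 40 with DESeq2, 9 with no filter, 0 with all libraries in a fit and 1 with the replicate block, and 0 to 3 with a library left out. For Notum, 0 calls became 526 with DESeq2, 42 with no filter, 9 with all libraries, 2540 against the control of the same date, where the lone control is assumed to vary like the mutants, and with a library left out 2540 without control chondroblasts A, 106 without B and 0 without any mutant. For chondroblasts against muscle, 18 calls became 254, 305 and 532 under DESeq2, no filter and all libraries, and 2 to 5 with a library left out. For chondroblasts against epithelium, 375 became 1554, 1463 and 2961, and 20 without control chondroblasts B to 1038 without epithelium B. For muscle against epithelium, 490 became 1827, 1620 and 3576, and 162 without muscle A to 1197 without epithelium B. For E13.5 against E11.5, 1835 calls (1033 higher, 802 lower) became 3493 with DESeq2 (1553 higher, 1940 lower), and 825 without control chondroblasts B to 3391 without A. With no filter the median log2 fold change of all genes moved to 0.17 for Notum, 0.17 for muscle against epithelium and -0.47 for E13.5 against E11.5.

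With the replicate block, Igfbp2 and Igfbp4 turned to -0.37 and -0.16 between Wnt5a mutant and control, and the pairing changed no call of a member. No paired analysis was possible because the Notum columns carry no replicate numbers of the labels. The sorted controls have 1 library of each population at each date, and a date term gave 24 calls for chondroblasts against muscle, 298 for chondroblasts against epithelium and 398 for muscle against epithelium. Igfbp2 for Notum was 0.0041 with no filter, Igfbp4 for Notum -0.17 against the control of the same date, Igfbp4 between chondroblasts and muscle -0.038 with a date term, and Igfbp3 between ages 0.0076 with the largest entry. With a library left out, ranges that crossed 0 were, for Wnt5a, Igf1r -0.027 to 0.21, Igfbp2 -0.25 to 0.41 and Igfbp4 -0.14 to 0.29. For Notum they were Igfbp2 -0.79 to 1.84 and Igfbp4 -0.17 to 0.91. For chondroblasts against muscle they were Igf2r -0.72 to 0.29, Igfbp2 -2.14 to 0.50, Igfbp4 -0.64 to 0.44 and Igfbp7 -1.20 to 0.60. Between ages they were Igf2r -0.67 to 0.082, Igfbp2 -2.29 to 0.31 and Igfbp3 -0.34 to 0.24.

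With 2 or 3 libraries in each sorted group, many calls turned on single libraries. Igfbp6 and Igfbp7 had 535 and 467 counts in 18 libraries.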
